A study of Mus musculus with 48 samples.

Results

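The 10 genes described here encode heat-shock proteins, their transcription factor and a pair of cold-inducible RNA-binding proteins, and they were chosen by name from the 25229 gene symbols of the count table. They are Cirbp and Rbm3, the 70-kDa chaperone genes Hspa1a, Hspa1b and Hspa8, the HSP110 gene Hsph1, the HSP40 gene Dnajb1, the cytosolic HSP90 gene Hsp90aa1, the small heat-shock protein gene Hspb1 and Hsf1. All 10 passed the filter on low counts in both tissues. RNA was sequenced from arcuate nucleus micropunches and left nodose ganglia of male C57Bl/6J mice whose Rev-erb alpha and beta genes (Nr1d1 and Nr1d2) were both floxed (Reverb a/b fl/fl). Controls received AAV8-TBG-EGFP by tail vein and HepDKO mice AAV8-TBG-Cre, where TBG is a hepatocyte promoter, so all mice carried the floxed alleles and a virus, and the deletion was directed at liver cells and not at the tissues sequenced. Mice were 10 to 12 weeks old, had been injected at 6 to 10 weeks and were kept for 2 to 4 weeks at 27 °C on chow and 12 h of light and 12 h of dark. Tissue was collected every 6 h, at hour 4, 10, 16 and 22 after lights on (zeitgeber time, ZT), with 3 libraries for each of the 16 groups of tissue, genotype and time, 48 in all. Each library was a pool, of 3 mice (protocol) or 3 to 4 (series design) for arcuate and of 4 for nodose.

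Heat-shock proteins are chaperones that fold new or damaged proteins, and many of their genes are switched on by the transcription factor HSF1 when body or tissue temperature rises. CIRBP and RBM3 behave in the opposite way: their mRNAs rise when cells are mildly cooled. Nocturnal rodents are warmest during the active dark phase and coolest during the light phase, and in peripheral organs and brain both groups of transcripts are known to follow this daily temperature cycle. No body temperature was among the data used here.

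Arcuate libraries held 15483922 to 20399718 counts (median 17324244) and nodose libraries 1813994 to 10422914 (median 6641665). Arcuate libraries were made by a sequencing company and nodose libraries with a ribosomal RNA depletion kit, so effects of tissue and of preparation cannot be told apart. Levels are given as CPM, counts scaled to a common library size. Arcuate libraries carried neuronal transcripts, with the 5 listed neuron markers summing to a median of 2473 CPM and the 7 arcuate neuron markers to 277. Nodose libraries did not match their label in this respect. The same 5 neuron markers summed to a median of 22.4 CPM, skeletal muscle markers summed to 3436 to 66191 CPM, and Schwann cell markers to a median of 16334. Values called nodose below are those of this mixed tissue, and in bulk RNA fewer cells of a type and less RNA per cell cannot be told apart. In each tissue 1 HepDKO ZT10 library stood apart by Xist, an RNA of female cells (1914 counts in arcuate replicate 3, next 10, and 1694 in nodose replicate 2, next 13), although all mice were labelled male. The 5 clock genes Nr1d1, Dbp, Per1, Per2 and Arntl all passed the rhythm test in both tissues.

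Promoter sequences are shown because the 2 groups of genes are known for different control elements. The heat-shock element, which HSF1 binds, is built of alternating GAA and TTC blocks, and a mild cold response element was described for Cirbp. RefSeq (GRCm38.p6) promoter entries matched 6 of the 10 genes. The 250 bases before the start were searched on both strands for GAANNTTC and TTCNNGAA, which read the same on either strand and can overlap in a longer element, for TCCCCGCC and for the E-box CACGTG. Either heat-shock core was present in 13% of 27025 promoters of this length, TCCCCGCC in 4.7% and CACGTG in 6.04%. The 5 promoters with a match are printed 5′ to 3′ in the direction of the gene, with capitals marking the heat-shock core, or in Cirbp the cold response element.
Hspa1a (chr17:34972157-34972406, minus strand): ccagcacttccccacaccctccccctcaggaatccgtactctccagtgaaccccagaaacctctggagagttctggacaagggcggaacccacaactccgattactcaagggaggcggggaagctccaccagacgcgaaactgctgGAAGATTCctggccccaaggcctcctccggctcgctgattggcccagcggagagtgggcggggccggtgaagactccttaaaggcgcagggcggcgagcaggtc
Hspa1b (chr17:34959239-34959488, minus strand): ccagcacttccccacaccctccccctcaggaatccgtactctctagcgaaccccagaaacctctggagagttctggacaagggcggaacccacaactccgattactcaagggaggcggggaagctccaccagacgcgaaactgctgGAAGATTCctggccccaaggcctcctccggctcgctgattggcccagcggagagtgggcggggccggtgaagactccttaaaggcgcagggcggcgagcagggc
Hsph1 (chr5:149636337-149636586, minus strand): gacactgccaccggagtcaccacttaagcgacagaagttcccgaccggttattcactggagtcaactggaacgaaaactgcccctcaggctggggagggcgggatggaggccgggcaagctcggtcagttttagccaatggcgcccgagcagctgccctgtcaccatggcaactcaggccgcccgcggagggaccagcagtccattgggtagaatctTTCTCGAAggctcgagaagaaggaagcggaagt
Hspb1 (chr5:135887669-135887918, plus strand): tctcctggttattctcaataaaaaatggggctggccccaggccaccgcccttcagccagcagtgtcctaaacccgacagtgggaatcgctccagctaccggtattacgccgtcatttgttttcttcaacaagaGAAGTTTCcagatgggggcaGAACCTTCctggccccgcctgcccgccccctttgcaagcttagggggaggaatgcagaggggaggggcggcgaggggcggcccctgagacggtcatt
Cirbp (chr10:80167589-80167838, plus strand): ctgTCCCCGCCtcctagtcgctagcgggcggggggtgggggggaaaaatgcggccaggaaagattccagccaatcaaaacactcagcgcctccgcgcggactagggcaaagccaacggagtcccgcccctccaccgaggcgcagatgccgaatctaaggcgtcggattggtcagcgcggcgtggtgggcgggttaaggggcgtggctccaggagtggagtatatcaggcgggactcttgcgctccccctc

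The first base of GAANNTTC lay 104 bases before the start in both Hspa1a and Hspa1b and 117 and 97 bases before it in Hspb1, and TTCNNGAA lay 33 bases before it in Hsph1. The Cirbp window held TCCCCGCC 247 bases before the start and neither heat-shock core. RefSeq lists 2 starts for Cirbp, Hsph1 and Dnajb1, of which the more upstream was searched and the other was not, and the GENCODE span of the gene covers the whole Cirbp window and the end of the Hsph1 window with its TTCNNGAA. Hspa1a and Hspa1b, whose promoters were identical at 247 of 250 bases (98.8%), also held the reverse complement of TCCCCGCC, 137 bases before the start. No CACGTG was found in the 6 windows, and Dnajb1 held none of the 4 motifs. A match is a description of these letters and not of binding.

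In the arcuate nucleus, the median level of 6 of the 7 chaperone genes was highest at ZT16, the fourth hour after lights off, and that of Hsp90aa1 at ZT22 (shown in the plot of arcuate levels). Hspa1a, Hspa1b and Dnajb1 stayed near a flat level at ZT4, ZT10 and ZT22, while ZT22 medians of Hsph1 and Hspa8 lay between those of ZT16 and the light phase. Cirbp ran the other way, with its highest levels in the light phase. A 24-h rhythm, averaged over both genotypes, was called for 8 of the 10 genes (edgeR, quasi-likelihood test, Benjamini-Hochberg adjusted), against 3.86% of the 16102 genes tested. The test asks whether ZT4 differs from ZT16 or ZT10 from ZT22, and the amplitude is the distance from mean to peak of the 24-h component on the log2 scale. All 7 chaperone genes passed with a peak in the dark (background 2.12%), Cirbp passed with a peak in the light (background 1.75%), and Rbm3 and Hsf1 did not pass. The median amplitude over the 10 genes was 0.25, beside 0.075 over all genes tested.

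**Figure D1:**
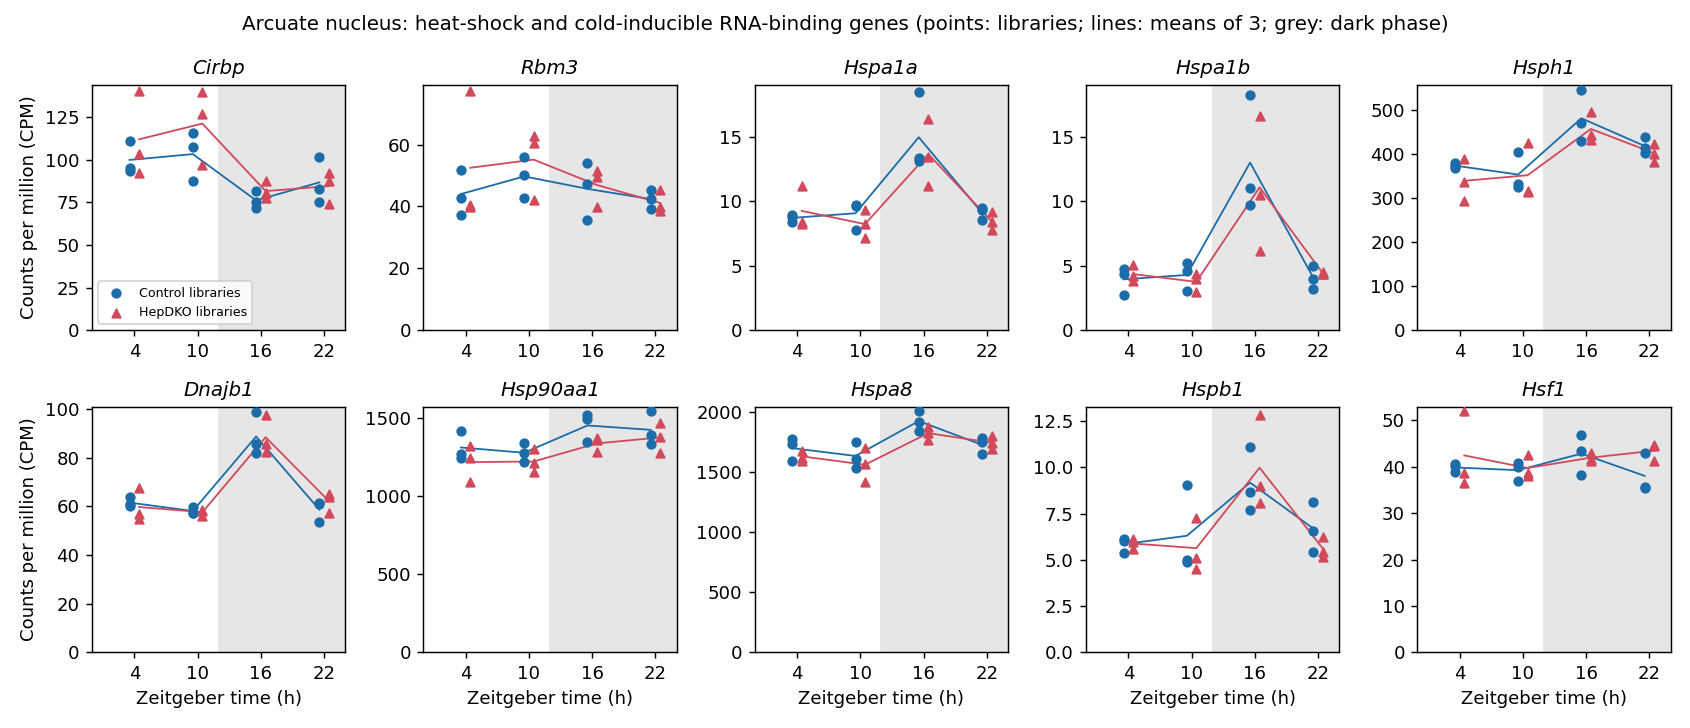
Arcuate nucleus: CPM of the 10 genes (y axis) against zeitgeber time in hours (x axis), with 3 Control (circles) and 3 HepDKO (triangles) libraries at each time, lines through group means and grey for the dark phase. For Hspa1a, Hspa1b and Dnajb1 all 6 ZT16 libraries lie above the other 18, and Cirbp is highest in the light phase.

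Cirbp (chromosome 10, 80165985 to 80172786, GRCm38, plus strand) encodes a glycine-rich RNA-binding protein that is induced by mild cold. Over the 6 arcuate libraries of each time its lowest, median and highest levels were 92.2, 99.0 and 140 CPM at ZT4, 87.1, 111 and 140 at ZT10, 71.8, 78.7 and 87.1 at ZT16 and 73.8, 85.3 and 101 at ZT22. All ZT4 libraries were above all ZT16 libraries, while ZT16 overlapped with ZT22 and met ZT10 at 87.1 CPM. The amplitude was 0.29 ± 0.055 (SE) with a peak at ZT6.83 ± 0.73 h (SE), a 1.49-fold difference from trough to peak (adjusted p = 0.0154, edgeR's quasi-likelihood test).

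Rbm3 (chromosome X, 8138975 to 8145880, minus strand) encodes the other cold-inducible RNA-binding protein, which is known for its role at synapses after cooling. Its arcuate levels were 37.4, 41.7 and 77.2 CPM at ZT4, 42.1, 53.2 and 62.9 at ZT10, 35.8, 48.4 and 54.0 at ZT16 and 38.5, 41.1 and 45.4 at ZT22 (lowest, median and highest of 6). The time points overlapped, and 1 library, HepDKO ZT4 replicate 3, was highest for Rbm3, Cirbp and Hsf1 alike. The estimated amplitude was 0.17 with a peak at ZT9.40 ± 1.87 h (SE), which did not pass the test (edgeR adjusted p = 0.401).

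Hspa1a and Hspa1b (chromosome 17, 34969190 to 34972156 and 34956436 to 34959238, both on the minus strand) are neighbouring genes for the strongly stress-inducible HSP70. Their coding sequences are near-identical, so the split of reads between them is uncertain and depends on how the authors counted. At ZT16 Hspa1b stood at 9.71, 18.3 and 11.1 CPM in Control libraries and 10.5, 16.6 and 6.15 in HepDKO, and in the 18 libraries of the other times it ranged from 2.77 to 5.21 CPM. Every ZT16 library was above every other library, and replicate 2 was the highest in both genotypes. The amplitude was 0.77 ± 0.11 (SE) with a peak at ZT16.2 ± 0.58 h, or 2.90-fold from trough to peak (edgeR adjusted p = 0.000748).

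Hspa1a followed the same course over a smaller range. It stood at 13.1, 18.5 and 13.3 CPM in Control libraries and 13.4, 16.4 and 11.2 in HepDKO at ZT16, beside 7.13 to 11.2 CPM at the other times, and again all 6 ZT16 libraries were the highest, the lowest of them by a narrow margin. Its amplitude was 0.34 ± 0.054 (SE) with a peak at ZT16.1, or 1.59-fold (edgeR adjusted p = 0.00167). Counted as 1 gene, Hspa1a+Hspa1b had an amplitude of 0.50 with a peak at ZT16.2 (edgeR adjusted p = 0.000647).

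Dnajb1 (chromosome 8, 83608193 to 83612653, plus strand), the HSP40 co-chaperone that delivers substrates to HSP70, had the lowest p of the 10 genes. It stood at 82.0, 98.6 and 85.6 CPM in Control libraries and 85.6, 97.5 and 82.2 in HepDKO at ZT16. At the other times it was between 53.7 and 67.5 CPM in all 18 libraries, so the groups did not overlap. Amplitude was 0.28 ± 0.029 (SE), peak ZT16.4 ± 0.41 h and trough-to-peak fold 1.46 (edgeR adjusted p = 5.54e-06). A separation of all 6 ZT16 libraries above the other 18, as in Hspa1a, Hspa1b and Dnajb1, was found in 0.317% of the arcuate genes tested.

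Hsph1 (chromosome 5, 149614287 to 149636376, minus strand) encodes HSP110, the nucleotide exchange factor that resets HSP70. It was at 428, 544 and 470 CPM in Control libraries and 442, 496 and 432 in HepDKO at ZT16, and at 293 to 438 CPM at the other times. The ZT22 libraries (381, 408 and 438 CPM as lowest, median and highest) overlapped with those of ZT16 and of the light phase, with a median between them, and 4 of the 6 ZT16 libraries were above all others. The amplitude was 0.23 ± 0.040 (SE) and the peak ZT17.9 ± 0.67 h (1.37-fold, edgeR adjusted p = 0.00667).

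The most abundant chaperone transcripts had smaller amplitudes. Hspa8 (chromosome 9, 40800984 to 40810087, plus strand), which encodes the constitutive HSC70, was at 1847, 2013 and 1918 CPM in Control libraries and 1827, 1880 and 1767 in HepDKO at ZT16, and 5 of these 6 libraries were above the other 18, which ranged from 1417 to 1804. Hspa8 had an amplitude of 0.10 ± 0.022 (SE) and a peak at ZT18.3 (1.16-fold, edgeR adjusted p = 0.0189). Hsp90aa1 (chromosome 12, 110690605 to 110702728, minus strand), the inducible form of cytosolic HSP90, had medians of 1259, 1247, 1367 and 1388 CPM at ZT4, ZT10, ZT16 and ZT22 with overlapping ranges, an amplitude of 0.11 ± 0.026 (SE) and a peak at ZT19.3 (1.16-fold, edgeR adjusted p = 0.0413).

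Hspb1 (chromosome 5, 135887919 to 135889563, plus strand), a small heat-shock protein that holds unfolded proteins and binds actin, was scarce in the arcuate. It was at 7.71, 11.1 and 8.69 CPM in Control libraries and 9.01, 12.9 and 8.09 in HepDKO at ZT16, and at 4.53 to 9.05 CPM at the other times, with 2 ZT16 libraries above the rest. Its amplitude was 0.35 ± 0.077 (SE) with a peak at ZT16.2 (1.63-fold, edgeR adjusted p = 0.0229). Hsf1 (chromosome 15, 76477422 to 76501913, plus strand), whose protein is activated by release from chaperones and not mainly by more mRNA, had medians of 39.4, 39.3, 42.3 and 42.1 CPM at the 4 times, with an amplitude of 0.031 (edgeR adjusted p = 0.828).

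The size of the arcuate result rested in part on replicate 2 of ZT16. Those 2 libraries, Control and HepDKO, held the highest value of 6 of the 7 chaperone genes. The Control library, highest for 5 of them, also had the lowest neuron marker sum (2301 CPM) and the lowest Schwann cell marker sum (1043 CPM) of the 24 arcuate libraries, beside 2383 and 1382 CPM in the HepDKO library, and the part of this in the result was not tested. With both left out, a choice made after seeing the data, 4 members were called (Hspa1a, Hspa1b, Hsph1 and Dnajb1) among 163 genes, in place of 622 with all libraries, and the Hspa1b fold was 2.24. The amplitudes of the lost calls were 0.28 for Cirbp (edgeR adjusted p = 0.0751), 0.11 for Hsp90aa1, 0.094 for Hspa8 and 0.26 for Hspb1. Leaving out single libraries gave 5 to 8 called members, and the Hsp90aa1 call was lost in 15 of these 24 fits. The Hspa8 and Hspb1 calls were lost without ZT16 replicate 2 of either genotype, and that of Hspb1 also without Control ZT4 replicate 1. With a test of any difference among the 4 times, which called 2.79% of arcuate genes, the call of arcuate Hsp90aa1 was lost (edgeR adjusted p = 0.0808) and the other 7 calls stayed. Same-numbered Control and HepDKO libraries of a time, such as these 2, were also summed and counted as 1 unit, another choice made after seeing the data. With 12 units in place of 24 libraries, 5 members were called (Cirbp, Hspa1a, Hspa1b, Dnajb1 and Hsp90aa1) against 1.63% of genes, and the lost calls had amplitudes of 0.23 for Hsph1 (edgeR adjusted p = 0.0588), 0.11 for Hspa8 (edgeR adjusted p = 0.0740) and 0.36 for Hspb1 (edgeR adjusted p = 0.129).

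In nodose the median level of each of the 7 chaperone genes was highest at ZT16, and that of Cirbp was lowest then (shown in the plot of nodose levels). A 24-h rhythm averaged over genotypes was called for 5 of the 10 genes, Cirbp, Hspa1a, Hspa1b, Hsph1 and Hspa8, against 1.33% of the 14867 genes tested (edgeR, adjusted p under 0.05). The 4 chaperone genes peaked in the dark (background 0.794%) and Cirbp in the light (background 0.538%). The median amplitude over the 10 genes was 0.39, beside 0.12 over all genes.

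**Figure D2:**
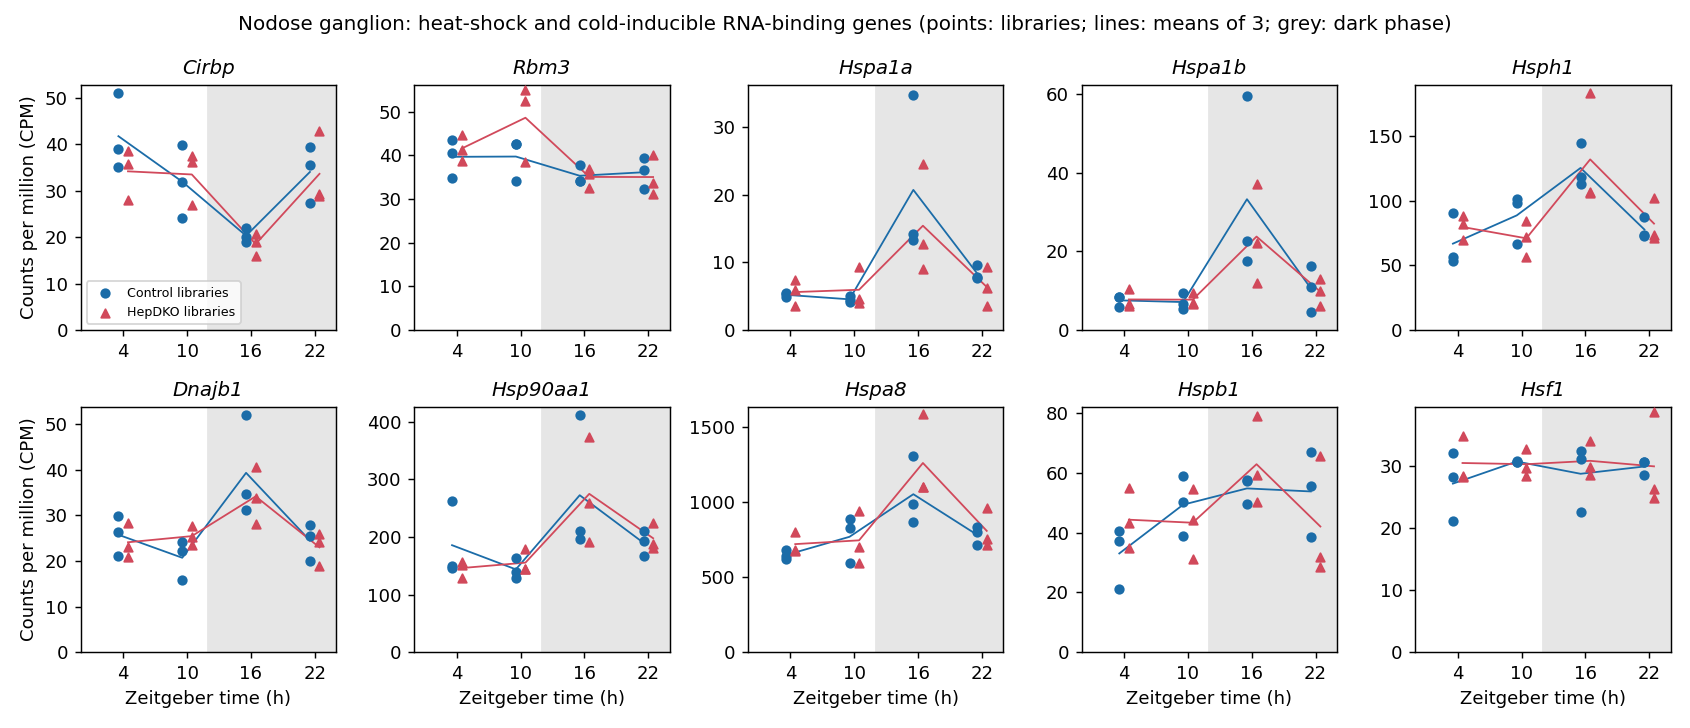
Nodose: CPM of the 10 genes (y axis) against zeitgeber time in hours (x axis), with 3 Control (circles) and 3 HepDKO (triangles) libraries at each time, lines through group means and grey for the dark phase. All 6 ZT16 libraries lie below the other 18 for Cirbp and above them for Hsph1, and 1 ZT16 library of each genotype stands far above the rest for Hspa1a and Hspa1b.

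At ZT16 the nodose levels of Cirbp were 20.1, 18.9 and 22 CPM in Control libraries and 20.7, 19.0 and 15.9 in HepDKO libraries, and in the other 18 libraries it was 24.2 to 51.0 CPM. All 6 ZT16 libraries were below all others, a separation found in 0.0471% of nodose genes. The highest group was Control ZT4, with 51.0, 39.0 and 35.2 CPM. Cirbp had an amplitude of 0.48 ± 0.074 (SE) and a peak at ZT3.80 ± 0.57 h (1.94-fold, edgeR adjusted p = 0.00303). Rbm3 was highest at ZT10, with 42.5, 34.0 and 42.6 CPM in Control libraries and 52.4, 38.5 and 54.9 in HepDKO, but overlapped with all other times (31.2 to 44.7 CPM), and its amplitude of 0.18 with a peak at ZT7.66 ± 1.06 h did not pass (edgeR adjusted p = 0.160).

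At ZT16 nodose Hspa1a stood at 14.2, 13.3 and 34.6 CPM in Control libraries and 12.7, 8.97 and 24.5 in HepDKO, against 3.56 to 9.62 CPM at the other times, so 5 of the 6 ZT16 libraries were above all 18 others. Its trough-to-peak fold was 3.44, with an amplitude of 0.89 ± 0.15 (SE) and a peak at ZT17.1 ± 0.66 h (edgeR adjusted p = 0.00805). Hspa1b was at 22.8, 17.5 and 59.6 CPM in Control libraries and 22.2, 11.9 and 37.3 in HepDKO at ZT16, against 4.68 to 16.3 CPM at the other times. Here too 5 of 6 ZT16 libraries were above the rest, with an amplitude of 0.97 ± 0.17 (SE) and a peak at ZT17.0 (3.81-fold, edgeR adjusted p = 0.0156). As 1 gene, Hspa1a+Hspa1b had an amplitude of 0.94 and a peak at ZT17.0 (edgeR adjusted p = 0.0100). These are low counts, from 11 to 200 per library for Hspa1a.

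At ZT16 nodose Hsph1 stood at 113, 119 and 144 CPM in Control libraries and 106, 107 and 183 in HepDKO. The other 18 libraries held 53.8 to 102 CPM, so all 6 ZT16 libraries were the highest, as in 0.0673% of nodose genes. Its amplitude was 0.41 ± 0.081 (SE) and its peak ZT16.0 (1.75-fold, edgeR adjusted p = 0.0285). Hspa8 was at 866, 988 and 1309 CPM in Control libraries and 1100, 1100 and 1586 in HepDKO at ZT16, with 5 of 6 libraries above the 593 to 961 CPM of the other times, and had an amplitude of 0.38 ± 0.071 (SE) with a peak at ZT16.4 (1.69-fold, edgeR adjusted p = 0.0166).

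The other nodose chaperones had peaks at similar times but did not pass. Dnajb1 was at 34.7, 31.3 and 51.9 CPM in Control libraries and 33.7, 28.1 and 40.6 in HepDKO at ZT16, above the 15.7 to 29.9 CPM of the other times in 5 of 6 libraries, with an amplitude of 0.28 (edgeR adjusted p = 0.134). Hsp90aa1 was at 196, 210 and 412 CPM in Control libraries and 260, 192 and 374 in HepDKO at ZT16, beside 129 to 262 at the other times, with an amplitude of 0.41 and a peak at ZT17.8 (edgeR adjusted p = 0.0594). Hspb1 ranged from 49.6 to 79.1 CPM at ZT16 and from 21.1 to 67.0 at the other times, with an amplitude of 0.30 (edgeR adjusted p = 0.340). Hsf1 had medians of 28.2, 30.6, 30.4 and 29.5 CPM at the 4 times (amplitude 0.026, edgeR adjusted p = 0.970). Hsp90aa1 was called in 4 of the 24 fits that each left out 1 library (Control ZT4 replicate 1, Control ZT16 replicates 1 and 2 or HepDKO ZT16 replicate 2). A test of any difference among the 4 times, which called 1.11% of nodose genes, also called nodose Dnajb1 (edgeR adjusted p = 0.0337) and Hsp90aa1 (edgeR adjusted p = 0.0443), and DESeq2 called Hsp90aa1 for the rhythm (adjusted p = 0.00818).

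The nodose chaperone amplitudes rested in part on replicate 3 of ZT16. Control and HepDKO ZT16 replicate 3 held the highest value of all 7 chaperone genes between them and the second highest of 6. The Control library was shallow (2889210 counts) and had the lowest muscle marker sum of all (3436 CPM) and, of the 6 ZT16 libraries, the highest neuron (41.1 CPM) and Schwann cell (23485 CPM) marker sums. The HepDKO library had 8087901 counts and marker sums of 24943 CPM for muscle, 21.0 CPM for neurons and 15467 CPM for Schwann cells, and the part of depth and composition in the result was not tested in this pair. With both left out, 3 members were called (Cirbp, Hspa1a and Hspa1b) among 116 genes, in place of 198 with all libraries. The amplitudes were then 0.64 for Hspa1a (2.44-fold), 0.69 for Hspa1b (2.59-fold) and 0.47 for Cirbp (1.91-fold, edgeR adjusted p = 0.0230), and those of the lost calls were 0.30 for Hsph1 (1.52-fold) and 0.28 for Hspa8 (1.48-fold). With same-numbered libraries of a time counted as 1 unit, 12 in all, 0 members were called in nodose by edgeR (0.209% of genes). In that fit 8 had an unadjusted p under 0.05 (background 10.4%), and the amplitudes were 0.47 for Cirbp (adjusted p = 0.0883), 0.89 for Hspa1a (adjusted p = 0.0824), 0.96 for Hspa1b (adjusted p = 0.0883), 0.40 for Hsph1 (adjusted p = 0.213) and 0.38 for Hspa8 (adjusted p = 0.247). The Hspa8 call was lost without either of these libraries, the Hspa1b call without Control ZT4 replicate 2, and the Hsph1 call in 6 of 24 fits that each left out 1 library (either ZT16 replicate 3, Control ZT4 replicates 1 and 2 or HepDKO ZT4 replicates 2 and 3). Summed muscle markers overlapped between the times, with medians of 26979, 34535, 24599 and 25079 CPM at ZT4, ZT10, ZT16 and ZT22. Summed adipocyte markers also overlapped, but their medians differed more with time, at 558, 1149, 1060 and 723 CPM in the same order. With muscle and adipocyte scores as covariates, the same 5 members were called by edgeR among 1.47% of genes, that of Hsph1 close to the threshold. The amplitudes were 0.51 for Cirbp (adjusted p = 0.00433), 0.72 for Hspa1a (adjusted p = 0.0153), 0.73 for Hspa1b (adjusted p = 0.0165), 0.37 for Hsph1 (adjusted p = 0.0497) and 0.35 for Hspa8 (adjusted p = 0.0361).

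Peak times are given for all members as estimates, also where the rhythm was not called, as for Rbm3 in both tissues. The estimated peaks of all 7 chaperone genes lay between ZT16.0 and ZT19.3 in the genotype averages of both tissues, and those of Cirbp and Rbm3 between ZT3.80 and ZT9.40 (shown in the plot of peak times). With 4 times at steps of 6 h, a peak estimated near ZT16 for a gene that is high at ZT16 alone mainly repeats the sampled time.

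**Figure D3:**
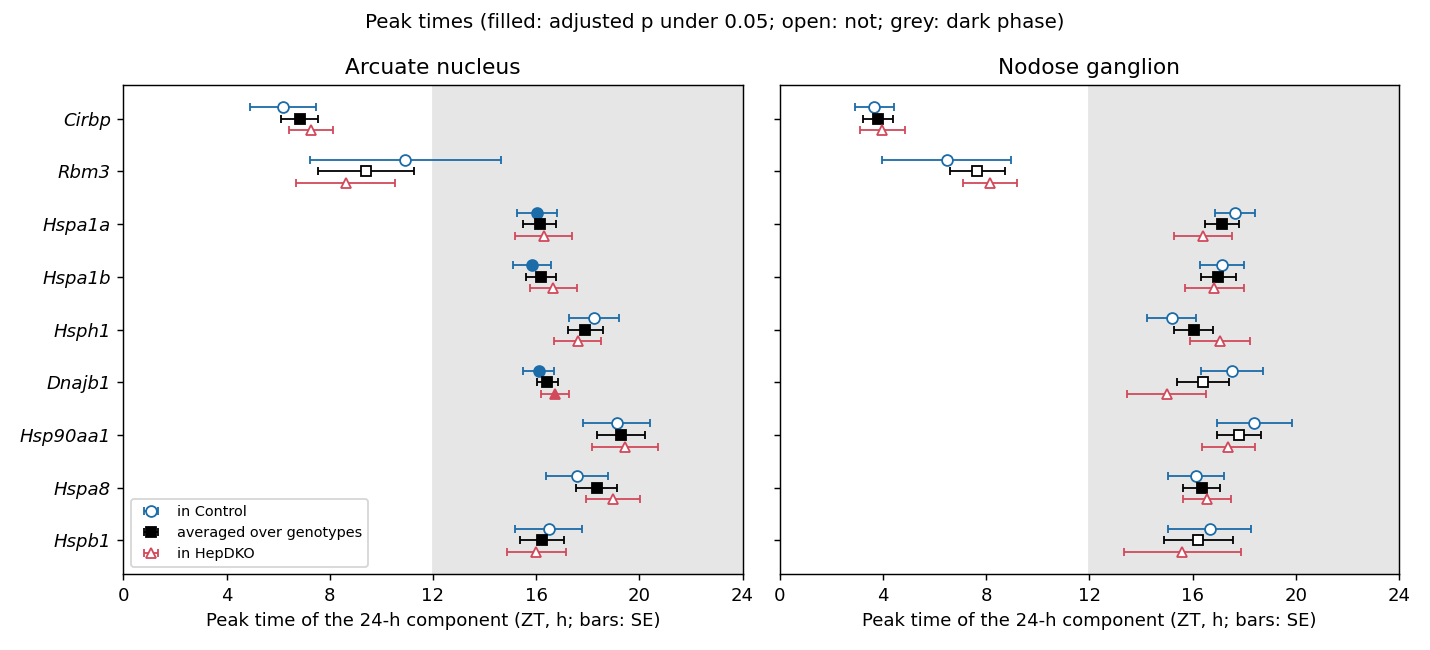
Peak time of the 24-h component in ZT hours (x axis, bars are SE) for 9 genes (y axis; Hsf1, with nearly no amplitude, is not drawn) in Control (circles), HepDKO (triangles) and their average (squares), filled where the adjusted p was under 0.05. Estimated peaks of Cirbp and Rbm3 lie in the light phase and those of the chaperone genes in the dark phase, shown in grey.

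The rhythm was next examined within each genotype, with 12 libraries each. In arcuate Control, Hspa1a (adjusted p = 0.0488), Hspa1b (adjusted p = 0.0272) and Dnajb1 (adjusted p = 0.00519) were called by edgeR, 3 of the 10 members against 0.261% of genes. In arcuate HepDKO, Dnajb1 alone was called (edgeR adjusted p = 0.00181), against 0.379% of genes, and 8 members had an unadjusted p under 0.05 in each genotype (background 7.73% in Control and 17.4% in HepDKO). The Control call of Hspa1a, close to the threshold, was lost in 16 of the 24 fits that each left out 1 library and with a replicate block, and that of Hspa1b in 5 of 24 fits and without the low-count filter. Without Control ZT16 replicate 2 or Control ZT4 replicate 3, 0 members were called in arcuate Control, among 15 and 11 genes in place of 42. Without HepDKO ZT4 replicate 2 or ZT10 replicate 3 (the high-Xist library) 3 were called in arcuate HepDKO, among 312 and 64 genes in place of 61. With the test of any difference among the times, Hspa1a and Hspa1b were also called in HepDKO (edgeR adjusted p = 0.0449 and 0.0316), against 0.354% of genes. In nodose, 0 members were called in either genotype by edgeR (background 0.242% of genes for Control, 0.121% for HepDKO). An unadjusted p under 0.05 was reached by 6 members in Control (background 8.88%) and 7 in HepDKO (background 7.28%). DESeq2 called 3 members in Control (background 0.908%) and 0 in HepDKO (70 of all genes called).

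A difference of the rhythm between genotypes was tested directly, the question being whether loss of REV-ERBs in the liver alters the daily course of these genes. It was called by edgeR for 0 of the 10 genes in either tissue (0 genes, 0%, in the background), with 0 members at an unadjusted p under 0.05 (background 2.37% in arcuate and 2.83% in nodose). By DESeq2 0 members were called, where it called 1 of all genes in arcuate and 0 in nodose. The trough-to-peak folds were 3.29 in Control and 2.58 in HepDKO for arcuate Hspa1b, 1.44 and 1.49 for arcuate Dnajb1, 2.04 and 1.85 for nodose Cirbp and 4.39 and 2.78 for nodose Hspa1a. The peak of arcuate Dnajb1 was estimated at ZT16.1 ± 0.60 in Control and ZT16.7 ± 0.55 in HepDKO (SE, h).

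A difference in level between HepDKO and Control was not called by edgeR for any of the 10 genes, averaged over the 4 times (0 called of 10 in each tissue, background 0%) or at any single time (0 called, background 0% at each). DESeq2 also called 0 members, where it called 23 of all genes in arcuate and 3 in nodose for the average over times. At arcuate ZT4 it called 5 of all genes. For the average over times, 1 member in arcuate (background 8.61%) and 0 in nodose (background 3.34%) had an unadjusted p under 0.05. That 1 was Hsp90aa1, with a log2 fold change of HepDKO over Control of -0.085 (95% interval -0.16 to -0.0096, edgeR adjusted p = 0.526). At single times 0 members had an unadjusted p under 0.05, where the backgrounds at ZT4, ZT10, ZT16 and ZT22 were 11.9%, 2.34%, 2.73% and 3.72% in arcuate and 2.36%, 2.04%, 4.94% and 5.25% in nodose. At ZT16 Hsp90aa1 stood at 1347, 1494 and 1521 CPM in Control libraries and 1372, 1283 and 1363 in HepDKO, and the groups overlapped.

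**Figure D4:**
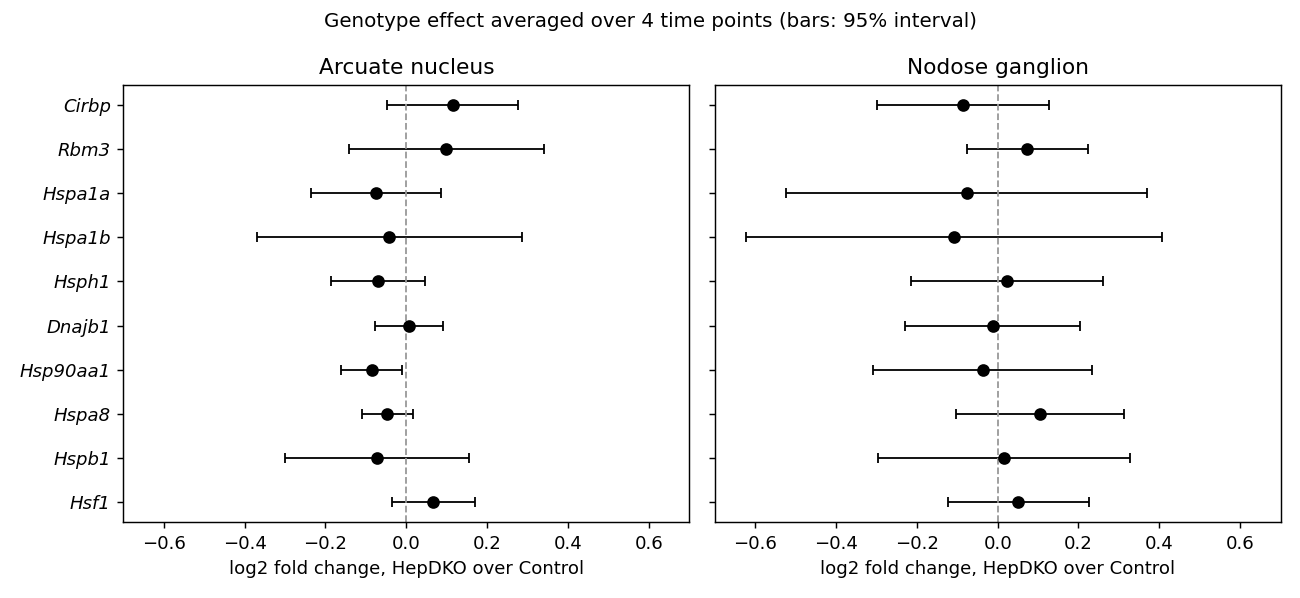
Log2 fold change of HepDKO over Control averaged over the 4 times (x axis) for the 10 genes (y axis) in each tissue, with 95% intervals as bars. Intervals are narrowest for Hspa8 in arcuate and widest for Hspa1b in nodose, and all but that of arcuate Hsp90aa1 include 0.

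In arcuate the 95% interval of the HepDKO over Control fold was 0.947 to 1.06 for Dnajb1, 0.926 to 1.01 for Hspa8, 0.967 to 1.21 for Cirbp and 0.774 to 1.22 for Hspa1b. In nodose it was 0.813 to 1.09 for Cirbp, 0.931 to 1.24 for Hspa8, 0.696 to 1.29 for Hspa1a and 0.649 to 1.32 for Hspa1b.

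When arcuate and nodose rhythms were tested against each other, from an F test on the separate edgeR fits, 0 of the 10 genes were called (background 0.416% of 13937 genes), 4 had an unadjusted p under 0.05 (background 10.3%), and DESeq2 called 2 (background 2.76%). Those 4 were Hspa8 (edgeR adjusted p = 0.183), Cirbp (edgeR adjusted p = 0.237), Hspa1a (edgeR adjusted p = 0.274) and Hsp90aa1 (edgeR adjusted p = 0.330). Amplitudes in arcuate and nodose were 0.10 and 0.38 for Hspa8, 0.29 and 0.48 for Cirbp, 0.34 and 0.89 for Hspa1a and 0.11 and 0.41 for Hsp90aa1. Those of Dnajb1 were 0.28 in both tissues, and that of Hspb1 was larger in arcuate, at 0.35 and 0.30. Cirbp peaked at ZT6.83 in arcuate, where ZT10 was as high as ZT4, and at ZT3.80 in nodose.

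**Figure D5:**
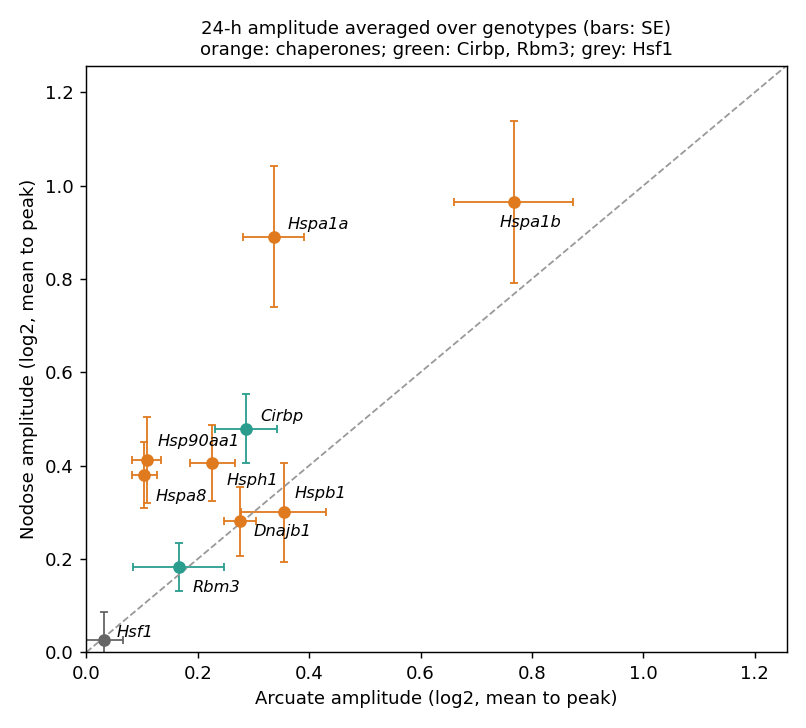
Amplitude of the 24-h component on the log2 scale, averaged over genotypes, in arcuate (x axis) and nodose (y axis), with SE bars, chaperones in orange, Cirbp and Rbm3 in green and Hsf1 in grey. Hspa1a, Hspa1b, Hsp90aa1, Hspa8, Hsph1 and Cirbp lie above the dashed line of equality, Hspb1 lies below it (0.35 in arcuate and 0.30 in nodose), and Dnajb1, Rbm3 and Hsf1 lie on or near it.

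The order of levels was compared per kilobase of merged exons (GENCODE vM21), as median CPM per kilobase over 24 libraries. In arcuate it ran from Hspa8 (404) and Hsp90aa1 (338) over Hsph1 (55.3), Cirbp (35.3), Dnajb1 (19.0) and Rbm3 (9.39) to Hspb1 (5.94), Hsf1 (5.75), Hspa1a (3.11) and Hspa1b (1.59). The ranges over libraries overlapped between Hspa8 and Hsp90aa1, between Hsph1 and Cirbp, between Cirbp and Dnajb1 and between all neighbours from Rbm3 on. In nodose Hspa8 was again first (187), followed by Hspb1 (48.4) and Hsp90aa1 (45.8), whose ranges overlapped, then Hsph1 (11.8), Cirbp (11.8), Rbm3 (8.12), Dnajb1 (8.03), Hsf1 (4.25), Hspa1b (3.40) and Hspa1a (2.30), with overlap between all neighbours from Hsph1 on. Hspb1 thus stood seventh in arcuate and second in nodose on this scale, a comparison of ranks across tissues prepared differently.

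Other genes of the heat-shock pathway were counted from lists chosen with earlier results of these data known. Of 18 further chaperones and HSF1 targets, 11 were called in arcuate for the averaged rhythm (3.86% of all genes were), 10 with a peak in the dark (2.12% of all genes) and 1, Hspb8, in the light (ZT9.81, 1.75% of all genes), and 17 of the 18 estimated peaks lay in the dark, where 48% of all genes peaked. The lowest p values belonged to the HSP90 activator Ahsa2 (1.46-fold, peak ZT16.8), the HSP90 co-chaperone Chordc1 (1.55-fold, ZT17.6), the HSP40 genes Dnaja4 (1.34-fold, ZT16.8) and Dnaja1 (1.18-fold, ZT16.7), Stip1, which links HSP70 to HSP90 (1.30-fold, ZT18.6), and Dnajb4 (1.19-fold, ZT16.8). Without both ZT16 replicate 2 libraries 6 of the 18 were called (163 of all genes), and with same-numbered libraries as 1 unit also 6 (272 genes, 1.63%). In nodose 1 of the 18 was called, Dnaja1 (1.90-fold, ZT16.2, edgeR adjusted p = 0.0177, where 1.33% of all genes were called), and 17 of 18 estimated peaks were again in the dark, against 45.7% of all genes. That count became 0 with same-numbered libraries as 1 unit, without both ZT16 replicate 3 libraries, without HepDKO ZT16 replicate 3 alone and without Control ZT4 replicate 2, 2 without Control ZT10 replicate 3 and 3 without HepDKO ZT22 replicate 3.

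The shares of all genes called were 3.86% in arcuate and 1.33% in nodose, and those with an unadjusted p under 0.05 were 21.6% and 12.8%. Of 11 genes listed as heat-shock factors and co-chaperones, 2 were called in arcuate: Hspa2 (1.37-fold, ZT14.5), itself an HSP70 family gene, and St13 (1.20-fold, ZT17.2). In arcuate 4 of the 11 had an unadjusted p under 0.05 by edgeR. In nodose 0 of the 11 were called by edgeR and 2 had an unadjusted p under 0.05, and Ptges3, with the lowest p, had an adjusted p of 0.308. Of 13 CLK kinases and serine/arginine-rich splicing factors, whose activity is known to follow temperature, 3 were called in arcuate: Tra2a (1.36-fold, ZT17.7), Tra2b (1.18-fold, ZT14.4) and Srsf5 (1.18-fold, ZT3.43), with 4 at an unadjusted p under 0.05. In nodose 0 of 13 were called by edgeR and 4 had an unadjusted p under 0.05, with Srsf5 lowest (peak ZT4.06, adjusted p = 0.0579). Of 7 immediate early genes, which respond to neuronal activity and to handling, 1 was called in arcuate, Egr1, with a peak at ZT4.74, and 3 had an unadjusted p under 0.05. In nodose 0 of the 6 tested were called and 0 had an unadjusted p under 0.05 by edgeR, Egr1 having the lowest p (adjusted p = 0.427).

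Genes whose levels ran most like the members are given as a description over the 24 libraries of a tissue, which share time, depth and composition. For arcuate Hsph1 they were Stip1 (Pearson r 0.94), P4ha1 (0.92) and Slc5a3 (0.91), and for arcuate Hspa8 they were Chordc1 (0.92), Stip1 (0.91) and Gtf2e2 (0.88). For nodose Hsph1 they were Ahsa2 (0.93), Stip1 (0.89) and Cacybp (0.78), and for nodose Hspa8 Ahsa2 (0.87), Hspa5 (0.84) and Stip1 (0.84). Stip1 thus appeared for both genes in both tissues. Among the genes closest to Cirbp were Erf (0.89) and Araf (0.87) in arcuate, and in nodose Srsf5 (0.88), Thra (0.79) and Ewsr1 (0.79). For Rbm3 the genes were Prxl2b (0.89), Rpsa (0.87) and Rps3a1 (0.84) in arcuate and Gstt2 (0.77), Pex11g (0.70) and Zbtb43 (0.66) in nodose. Between members, Cirbp had r of -0.88 with Hsph1, -0.87 with Hsp90aa1 and 0.71 with Rbm3 in arcuate, and of -0.78 with Hspa8 and 0.43 with Rbm3 in nodose.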

How the data were processed

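The authors deposited raw counts per gene symbol, with 1 column for each of the 48 libraries. The submitters' processing notes name FastQC 0.11.7, Trim Galore 0.6.10, STAR 2.7.10b and mm10; the counting tool, its annotation and its use of strand are not given in the sources used here. The 2 tissues were analysed separately in edgeR 4.0.16 (R 4.3.3). Genes were filtered with filterByExpr, libraries scaled by TMM factors and a robust quasi-likelihood model given 1 mean for each of 8 groups, which left 16102 arcuate and 14867 nodose genes. CPM use the TMM-scaled library. The 19 tests across genes (rhythm with 2 degrees of freedom, its genotype and tissue differences, and HepDKO minus Control) were each adjusted by Benjamini-Hochberg with a threshold of 0.05. Called means past it.

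Alternatives were RLE factors, no low-count filter, DESeq2 1.42.0, a replicate block, other sets of libraries, a test of any time difference, marker scores as covariates, Hspa1a and Hspa1b summed and each library left out; leaving out the high-Xist libraries or the ZT16 libraries of highest chaperone level, and counting same-numbered libraries of a time as 1 unit, was chosen after seeing the data. The members, lists and tests were chosen with earlier results of these data known. The genes named are the 10 members, from each list up to 6 with the lowest adjusted p under 0.05 or else the 1 with the lowest p, and the 3 genes most like Cirbp, Rbm3, Hsph1 and Hspa8, of which 1 is not reported here. Other genes, and Xist, were named after their values were seen. The code was tested on simulated counts. No replicate pair agreed within sampling noise (smallest chi-square per degree of freedom 2.89 in arcuate and 8.12 in nodose over 24 pairs each). Replicates are labelled as biological; where pools shared mice or days is not known, p-values measure only the spread between these pools. Gene positions are from GENCODE vM21 (GRCm38).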

Additional observations from a re-analysis of the deposited data

How the results depend on the processing

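Among 10 genes tested for the averaged rhythm, arcuate calls numbered 8 and ranged from 5 to 8 when single libraries were left out, and nodose calls numbered 5 and ranged from 3 to 6. Without both ZT16 replicate 2 libraries 4 were called in arcuate, among 163 genes in place of 622. In arcuate Control 1 in place of 3 was then called, among 14 genes in place of 42. Without both ZT16 replicate 3 libraries 3 were called in nodose, among 116 genes in place of 198. With same-numbered libraries of a time as 1 unit, which leaves fewer units by construction, 5 were called in arcuate (272 genes) and 0 in nodose (32 genes). Nodose calls numbered 6 with DESeq2 (383 genes in place of 198) and 7 with the test of any time difference (1.11% of genes). Within genotypes, single libraries moved the count from 0 to 3 in arcuate Control, from 1 to 3 in arcuate HepDKO (main 1) and from 0 to 1 in nodose Control (main 0). Arcuate HepDKO had 3 with the test of any time difference (0.354% of genes) and 3 without the high-Xist library (64 genes). It had 4 with DESeq2, among 385 genes in place of 61. Nodose Control had 1 with the test of any time difference (0.215% of genes) and 3 with DESeq2 (0.908%). For the tissue difference DESeq2 called 2 in place of 0 (2.76% of genes in place of 0.416%). All counts of members for genotype effects stayed at 0 in every alternative run. The causes of these shifts were not tested.

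Replicate numbers did not meet the criterion for pairing, a correlation over 0.1 in every pair. Same-numbered libraries of different groups had correlations of -0.13 to 0.16 in arcuate (9 of 84 over 0.1) and -0.43 to 0.36 in nodose (23 of 84), and 16 and 11 of 24 libraries were closest to their own number. Within a time, Control and HepDKO libraries of 1 number had correlations of -0.13 to 0.077 in arcuate (0 of 12 over 0.1) and -0.21 to 0.36 in nodose (7 of 12). Their medians were 0.030 in arcuate and 0.14 in nodose, beside -0.012 and -0.010 for libraries of different numbers and groups. Failing the criterion does not show that same-numbered libraries were independent. The members did share numbers at some times: in both genotypes, all 7 chaperone genes were highest in replicate 3 at arcuate ZT10 (where Cirbp and Rbm3 were lowest) and in replicate 3 at nodose ZT16, and 6 of 7 in replicate 2 at arcuate ZT16. The replicate block gave 8 arcuate and 5 nodose members for the averaged rhythm, 2 in arcuate Control, 1 in arcuate HepDKO, 1 in nodose Control and 0 in nodose HepDKO, and it lost the arcuate Control call of Hspa1a. The share of all genes called with the block is not given here. These counts thus do not show whether the members moved differently from all genes.

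The counts over all genes moved as well: 622 arcuate and 198 nodose rhythmic genes became 1075 and 383 with DESeq2, 287 to 1031 and 129 to 276 with 1 library left out, 163 and 116 without the ZT16 pairs, and 272 and 32 with same-numbered libraries as 1 unit. In Control and HepDKO arcuate, 42 and 61 genes became 101 and 385 with DESeq2, with ranges of 11 to 117 and 31 to 312 when 1 library was left out. In nodose, 36 and 18 became 135 and 70 with DESeq2 and 12 in each with only the libraries compared, with ranges of 15 to 71 and 14 to 27 when 1 library was left out. The tissue difference, 58 genes, became 455 with DESeq2 and 20 to 66 with 1 library left out.

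Genotype directions of some nodose members, none of them called, changed sign in some fits. With all libraries the log2 values were -0.077 for Hspa1a, -0.11 for Hspa1b, 0.023 for Hsph1, -0.012 for Dnajb1, -0.038 for Hsp90aa1, 0.016 for Hspb1 and 0.051 for Hsf1. With single libraries left out, Cirbp (-0.14 to -0.047), Rbm3 (0.035 to 0.10) and Hspa8 (0.044 to 0.15) kept their sign. With muscle and adipocyte scores as covariates the log2 values were 0.067 for Hspa1a, 0.14 for Hspa1b, -0.028 for Hsph1, 0.087 for Dnajb1, 0.13 for Hsp90aa1, -0.094 for Hspb1 and -0.035 for Hsf1. Without the high-Xist library they were -0.022 for Hsph1 and -0.045 for Hspb1, and without both ZT16 replicate 3 libraries -0.027 for Hsph1, 0.0096 for Dnajb1 and -0.026 for Hspb1. With single libraries left out, nodose ranges were -0.21 to 0.058 for Hspa1a, -0.24 to 0.060 for Hspa1b, -0.064 to 0.087 for Hsph1, -0.064 to 0.046 for Dnajb1, -0.12 to 0.068 for Hsp90aa1, -0.11 to 0.068 for Hspb1 and -0.014 to 0.080 for Hsf1. The arcuate ranges were -0.15 to 0.040 for Hspa1b, -0.019 to 0.026 for Dnajb1 and -0.13 to 0.016 for Hspb1.

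Low counts limit Hspa1a and Hspa1b, from 11 and 17 counts in a nodose library, and nodose depth varied from 1813994 to 10422914 counts.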

Other observations

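The share of Hspa1a in the summed Hspa1a and Hspa1b counts was not constant in the arcuate nucleus. Its median over the 6 libraries of a time was 66.6% at ZT4, 68.0% at ZT10 and 66.5% at ZT22, and 55.4% at ZT16 (range 49.6% to 64.5%, against 62.2% to 75.3% at the other times), so the ranges overlapped at their edges. In nodose the share was lower, with a median of 39.5% over all 24 libraries and 39.0% at ZT16. These shares rest on how reads shared by the 2 near-identical genes were counted, which is not given in the sources used here, and were chosen for description after their values were seen.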
